A study of Homo sapiens with 6 samples.

Results

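The kinase AKT, the kinases and scaffold that act on it, and the kinases and transcription factors that it phosphorylates were examined at the mRNA level in 786-O cells with and without NFE2L3 knockdown. The group was chosen by gene symbol and held 9 genes, all 9 found among the 56303 genes of the count table. They are AKT1, AKT2 and PDPK1, the GSK3 kinases GSK3A and GSK3B, MTOR and RICTOR, and the FOXO factors FOXO1 and FOXO3. All 9 passed the filter on low counts and were tested.

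The line 786-O was established from a clear cell renal cell carcinoma and lacks functional VHL. The 3 control libraries came from cells given a control siRNA and labelled WT and 0 h, and the 3 knockdown libraries from cells given an siRNA against NFE2L3 and labelled 48 h. The effect of the siRNA and that of the labelled time cannot be told apart. In the genotype label, the knockdown samples read NFE2L3, NFE2L4 and NFE2L5, while their titles and source names all read NFE2L3. Nothing in the labels says that the libraries came from separate cultures, so p-values reflect variation among these libraries only, and that variation may be technical.

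Growth factor receptors activate PI3K, whose lipid product brings AKT and PDPK1 to the membrane. There PDPK1 phosphorylates the activation loop of AKT, and mTOR in complex with RICTOR (mTORC2) phosphorylates its tail. Active AKT phosphorylates GSK3A and GSK3B, which inhibits them, and FOXO1 and FOXO3, which keeps them out of the nucleus. Unphosphorylated GSK3B marks β-catenin for degradation. These switches act on proteins. The study's blots looked at phosphorylated and total AKT and GSK3β, and also at LASP1 and β-catenin. RNA-seq measures only how much mRNA there was for each of these proteins.

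The libraries held 51828446 to 57391929 counted reads. NFE2L3 was at 116.3, 112.5 and 115.3 CPM (read counts divided by the library's TMM-adjusted total) in control and at 19.5, 19.1 and 20.8 CPM after knockdown. Of 11 renal carcinoma markers, 10 were expressed well enough to be tested, and CA9 was close to 0. Their summed level was 5102 to 5155 CPM in control and 5046 to 5157 CPM in knockdown libraries, but single markers moved both ways. PAX8, KRT8, KRT18, CDH6, MET and NNMT were lower, at 77.2% to 91.7% of control, and VEGFA and EPAS1 were higher, at 109.9% and 109.3% of control. PAX8 itself went from 240.5 to 216.9 CPM on average (edgeR adjusted p = 0.00626). Of 9 markers of other cell types, CD68 made up almost the whole sum of 115 to 146 CPM, and UMOD was at 0 in every library. COL1A1, the next highest, averaged 0.816 CPM in control and 0.665 CPM in knockdown libraries. PTPRC averaged 0.171 CPM in control and 0.168 CPM in knockdown libraries. CD68 was lower in knockdown libraries (log2 fold change -0.17, edgeR adjusted p = 0.0136), and the part of other cells in the results was not tested.

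The mRNAs of the kinases moved little. AKT1, the most widely expressed AKT isoform, was higher in the NFE2L3 knockdown libraries, at 111% of control, and FOXO3 and FOXO1 were lower, at 90.9% and 79.6% of control. AKT2, PDPK1, GSK3A, GSK3B, MTOR and RICTOR did not pass the test, and their means lay between 92.7% and 106.9% of control. Thus 3 of the 9 genes (33.3%) passed an adjusted p under 0.05 in edgeR's quasi-likelihood test, 2 lower and 1 higher. Of all 19916 genes tested, 26.7% passed, 14.0% lower and 12.7% higher. Among the 9403 genes whose mean level lay within the range of these 9, 34.6% passed, 19.3% lower and 15.3% higher, so the share of the 9 genes was near the background. The median absolute log2 fold change was 0.096 over the 9 genes and 0.157 over all genes tested. All genes tested include many at lower levels than these 9, often with larger standard errors, and this median was not matched by level. At the study's cutoffs, which were a 2-fold change and an unadjusted p under 0.05, none of the 9 was called by edgeR, and 1.10% of all genes tested were. At the p alone, 3 of the 9 passed, and at an adjusted p DESeq2 called 2, the exact test of edgeR 3 and limma-voom 3.

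**Figure D1:**
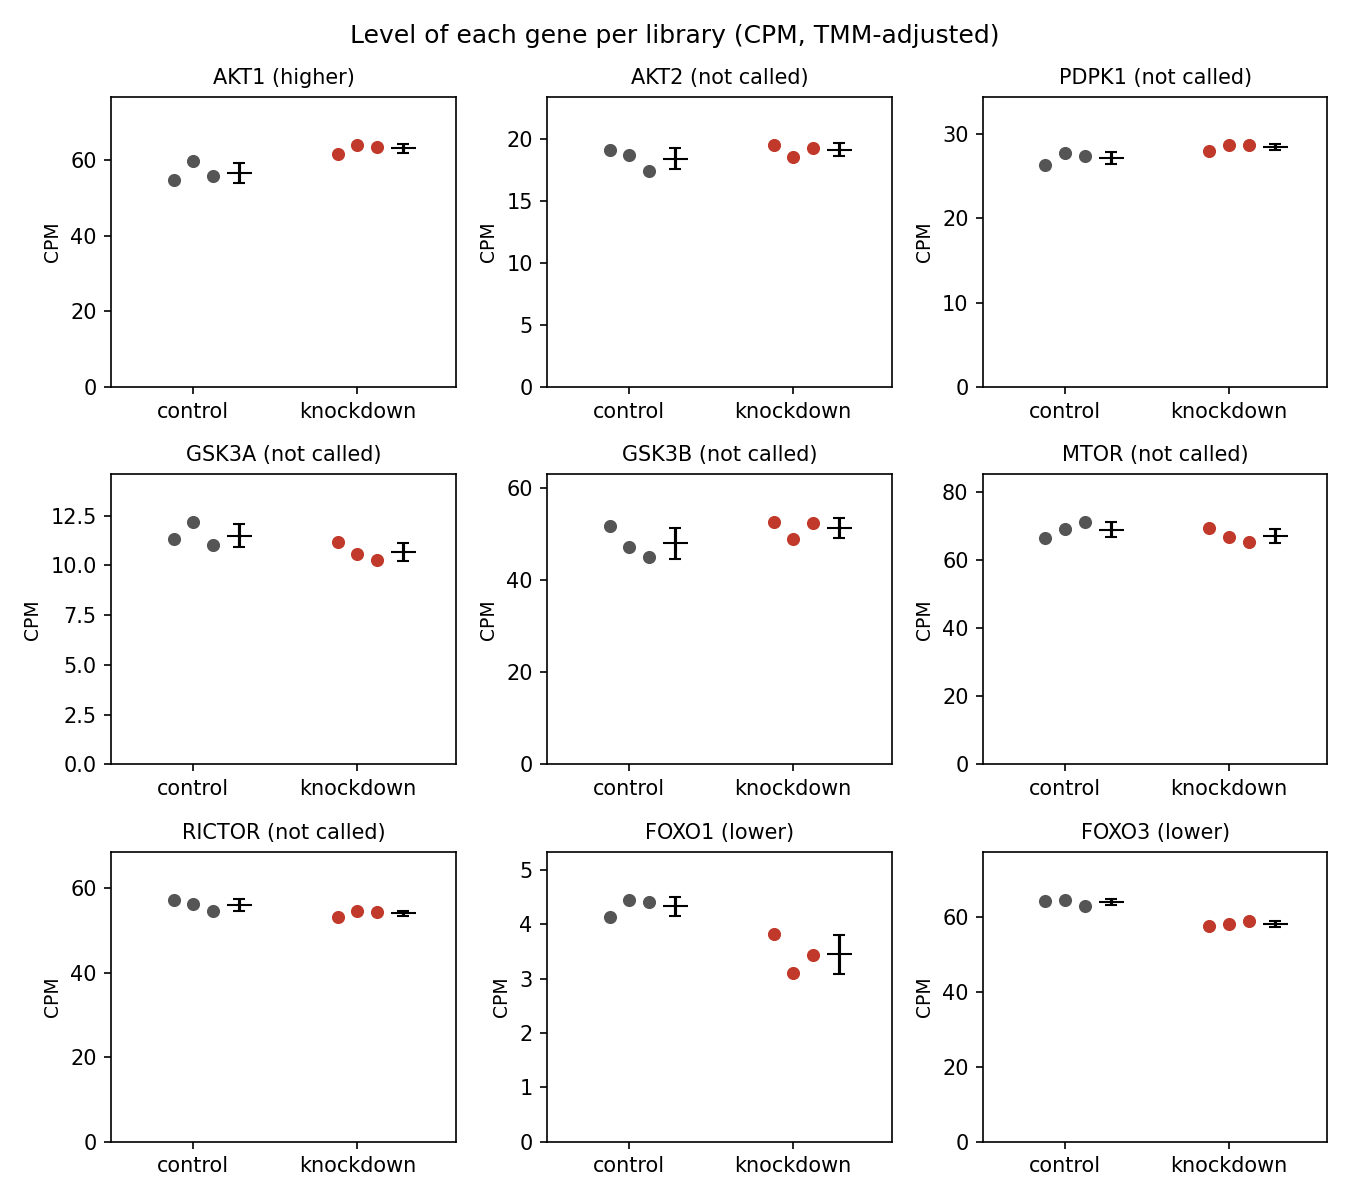
CPM of the 9 genes (y axes, from 0) in the 3 control (grey) and 3 NFE2L3 knockdown libraries (red), with the mean and SD beside each group and the call at an adjusted p under 0.05 in the title. The groups separate for AKT1, PDPK1, FOXO1 and FOXO3, and the shift is small beside the level in each of them.

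Since the knocked down factor binds DNA, the promoters of the called genes are shown, as given by RefSeq on GRCh38.p14 in windows of 300 bases around an annotated start. Each runs 5′ to 3′ on the strand of the gene. The AKT1 window is chr14:104795699-104795998 (minus strand), that of FOXO1 chr13:40666592-40666891 (minus strand) and that of FOXO3 chr6:108559575-108559874 (plus strand).
AKT1: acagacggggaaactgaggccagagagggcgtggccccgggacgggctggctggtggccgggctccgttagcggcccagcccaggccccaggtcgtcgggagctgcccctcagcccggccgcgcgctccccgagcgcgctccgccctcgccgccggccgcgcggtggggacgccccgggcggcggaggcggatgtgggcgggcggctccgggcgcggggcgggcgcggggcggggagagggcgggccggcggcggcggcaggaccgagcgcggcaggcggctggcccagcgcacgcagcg
FOXO1: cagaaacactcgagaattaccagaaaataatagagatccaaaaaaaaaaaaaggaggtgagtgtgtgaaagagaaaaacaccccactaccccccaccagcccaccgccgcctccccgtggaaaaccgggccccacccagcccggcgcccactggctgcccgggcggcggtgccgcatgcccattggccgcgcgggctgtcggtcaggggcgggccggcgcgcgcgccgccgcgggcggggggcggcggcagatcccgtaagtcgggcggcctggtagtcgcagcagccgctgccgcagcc
FOXO3: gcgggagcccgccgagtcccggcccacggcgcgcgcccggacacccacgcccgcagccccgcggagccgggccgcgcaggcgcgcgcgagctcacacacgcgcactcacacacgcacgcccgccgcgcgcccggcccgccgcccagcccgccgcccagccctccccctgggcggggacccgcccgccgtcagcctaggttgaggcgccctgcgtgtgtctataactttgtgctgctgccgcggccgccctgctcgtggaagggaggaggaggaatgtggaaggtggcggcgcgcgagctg
No letter is in capitals because neither of the motifs searched, on both strands, occurs in these windows. They were TGACNNNGC, the core bound by NFE2L3 and its relatives together with small MAF proteins, and TAAACA, a core of the sites that FOXO factors bind. For the binding of NFE2L3 at LASP1, the study gave another common sequence, GTCACWCT with W for any base, which was not searched here. TGACNNNGC occurred in 13.3% and TAAACA in 12.3% of the 35116 promoter windows of all genes. Of the 14 windows of the 9 genes, 1 held each motif, and both belong to other starts of FOXO3. The matches are printed with the motif in capitals. The first lies at chr6:108588748-108588776 and the second at chr6:108560674-108560699, both on the plus strand.
FOXO3, TGACNNNGC: aaatacagctTGACTGGGCcttgccctct
FOXO3, TAAACA: gagcgaaacaTAAACAaacgcacgca
G and C made up 83.3% of the printed AKT1 window, 78.3% of that of FOXO3 and 68% of that of FOXO1, beside a median of 58.7% over all windows. Base composition differed between starts of a gene, at 56.7% in the other AKT1 window and 48% to 76.3% in the other windows of FOXO3. A match of letters is a description, and its absence says only that these letters are not in the window.

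AKT1 spans bases 104769349 to 104795751 of chromosome 14 (minus strand), and all gene coordinates are those of GRCh38 as deposited. It was at 54.6, 59.6 and 55.6 CPM in control and at 61.6, 63.9 and 63.5 CPM in knockdown libraries. All 3 knockdown libraries lay above all 3 control libraries, by a margin smaller than the gap between the highest and the lowest control library. The log2 fold change was 0.15 (standard error 0.0461, 95% interval 0.059 to 0.249, adjusted p = 0.0138 from edgeR). The call was lost without control replicate 3 (adjusted p = 0.0504 from edgeR), knockdown replicate 2 (0.0631) or knockdown replicate 3 (0.0596), while the fold change stayed between 0.13 and 0.19. The antisense gene RP11-982M15.2 shares 663 bases (5.94%) of the exon sequence of AKT1 and was at 5.69 CPM on average. Its log2 fold change was 0.28 (adjusted p = 0.0562 from edgeR), and its part in the value of AKT1 was not tested. The library kit keeps the strand, but whether counting used it is not stated, so antisense reads may be included here and in the genes below.

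AKT2, the isoform best known for insulin-driven glucose uptake, lies on chromosome 19 from 40230317 to 40285536. It was at 19.1, 18.7 and 17.5 CPM in control and at 19.5, 18.6 and 19.3 CPM in knockdown libraries. The groups overlapped, and the log2 fold change of 0.05 was not past the test (95% interval -0.07 to 0.18, adjusted p = 0.563 from edgeR). PDPK1, which activates AKT and other kinases of its family, lies on chromosome 16 from 2537964 to 2603188. Its libraries were at 26.3, 27.7 and 27.4 CPM in control and at 28.01, 28.7 and 28.7 CPM in knockdown cells. Here the groups did not overlap, but the log2 fold change of 0.07 was not past the test (95% interval -0.04 to 0.18, adjusted p = 0.369 from edgeR). The value of PDPK1 is uncertain, since the near-identical copy PDPK2P on the same chromosome had 238 to 304 reads per library and reads of the copies may be split or lost. PDPK2P itself had a log2 fold change of 0.25 (adjusted p = 0.0832 from edgeR). Genes of the opposite strand, CTD-3126B10.1 and RP11-20I23.8, share 16.8% and 6.85% of the exon sequence of PDPK1.

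GSK3A and GSK3B are paralogous kinases that phosphorylate glycogen synthase and, in the case of GSK3B, are best known for the control of β-catenin. GSK3A (chromosome 19, 42230186 to 42242625) was at 11.3, 12.2 and 11.0 CPM in control and at 11.2, 10.6 and 10.3 CPM in knockdown libraries. GSK3B (chromosome 3, 119821323 to 120094417) was at 51.6, 47.1 and 45.05 CPM in control and at 52.4, 48.8 and 52.4 CPM in knockdown libraries. The groups overlapped for both genes. The log2 fold change was -0.11 for GSK3A (95% interval -0.26 to 0.04, adjusted p = 0.309 from edgeR) and 0.10 for GSK3B (95% interval -0.01 to 0.20, adjusted p = 0.190 from edgeR). The intervals leave room for a fall of GSK3A to 83.3% of control and a rise of GSK3B to 115.1%. GSK3B depended on the highest of the control libraries. Without control replicate 1 it was called higher (log2 fold change 0.15, edgeR adjusted p = 0.0242), and without control replicate 3 its log2 fold change was 0.05. AC006486.9, transcribed from the same strand, shares 479 bases (11.6%) of the exon sequence of GSK3A, and the value of GSK3A is uncertain to that extent. AC006486.9 averaged 8.56 CPM, with a log2 fold change of -0.15 (adjusted p = 0.226 in edgeR).

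MTOR is the kinase of both mTOR complexes, mTORC1, which drives protein synthesis, and mTORC2. It lies on chromosome 1 from 11106535 to 11262507 and was at 66.6, 69.2 and 71.1 CPM in control and at 69.4, 66.8 and 65.3 CPM in knockdown libraries. RICTOR, the subunit that defines mTORC2, lies on chromosome 5 from 38937919 to 39074408. It was at 57.3, 56.3 and 54.6 CPM in control and at 53.3, 54.6 and 54.3 CPM in knockdown libraries. The MTOR libraries were mixed, and of the RICTOR libraries the lowest control and the highest knockdown library had almost the same value. The log2 fold change was -0.04 for MTOR (95% interval -0.13 to 0.05, adjusted p = 0.576 from edgeR) and -0.05 for RICTOR (95% interval -0.14 to 0.04, adjusted p = 0.436 from edgeR). The intervals reach down to 91.3% of control for MTOR and 90.6% for RICTOR. RICTOR overlaps OSMR on the opposite strand by 229 bases, 1.69% of its exon sequence. OSMR averaged 114.7 CPM and fell (log2 fold change -0.42, adjusted p = 1.47e-08 by edgeR). Its part in the value of RICTOR was not tested.

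FOXO1 and FOXO3 are forkhead factors that switch on genes of cell cycle arrest, antioxidant defence and apoptosis when AKT is inactive. FOXO3 (chromosome 6, 108559835 to 108684774) was at 64.3, 64.6 and 63.1 CPM in control and at 57.5, 58.1 and 59.0 CPM in knockdown libraries. Its coefficient of variation was 1.25% in each group, below the 1.72% that counting alone gives at its mean count. If both mates of a read pair were counted, counting alone gives 2.44%. So small a spread among 3 libraries is no measure of precision. Every knockdown library lay below every control library. The log2 fold change was -0.14 (standard error 0.0430, 95% interval -0.23 to -0.05, adjusted p = 0.0185 from edgeR). It was not past the threshold without knockdown replicate 1 (adjusted p = 0.0772 from edgeR) or knockdown replicate 2 (0.0601), with a log2 fold change between -0.15 and -0.12 under all alternatives. The processed copy FOXO3B on chromosome 17 had 94 to 129 reads per library and a log2 fold change of 0.11 (adjusted p = 0.680 from edgeR). No other gene of the table shares exon sequence with FOXO3.

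FOXO1 (chromosome 13, 40469953 to 40666597) had the lowest counts of the 9 genes, with 219, 257 and 245 reads in control and 213, 174 and 176 reads in knockdown libraries. These were 4.13, 4.44 and 4.41 CPM in control and 3.81, 3.10 and 3.43 CPM in knockdown libraries, again without overlap. The log2 fold change of -0.33 was the largest of the 9 genes in absolute size and the least precise (standard error 0.117, 95% interval -0.57 to -0.09, adjusted p = 0.0375 from edgeR). Counting alone gives a coefficient of variation of 6.84% at the mean count of FOXO1, or 9.67% if both mates of a read pair were counted, and the knockdown libraries had 10.4%. The call was lost without control replicate 2 (adjusted p = 0.0905 from edgeR), control replicate 3 (0.0908), knockdown replicate 2 (0.169) or knockdown replicate 3 (0.0906), with upper quartile scaling (0.05055) and by DESeq2 (0.0594). LINC00598, transcribed from the same strand, shares 269 bases of exon sequence with FOXO1 but averaged only 0.261 CPM.

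**Figure D2:**
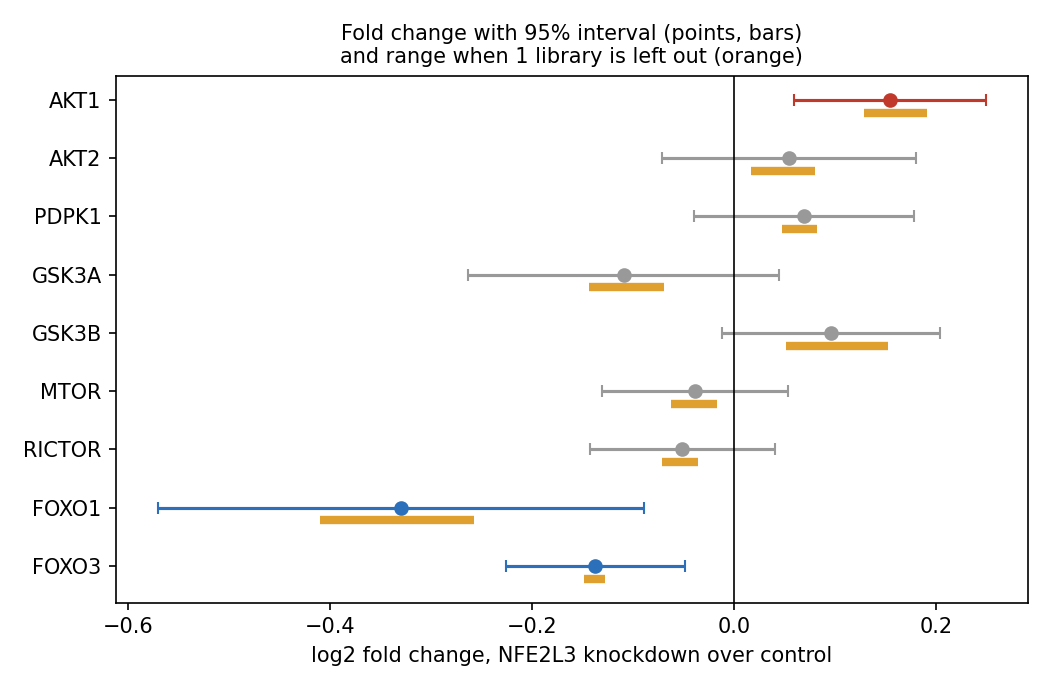
Change of each of the 9 genes on the log2 scale (x axis, knockdown divided by control) with points for the edgeR estimate, bars for its 95% interval, red for higher, blue for lower and grey for not called at an adjusted p under 0.05. The orange bars span the estimates when each of the 6 libraries was left out in turn. The estimates run from -0.33 in FOXO1 to 0.15 in AKT1, and no gene changed sign when 1 library was left out.

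The control and knockdown ranges were separate for 4 of the 9 genes (44.4%), AKT1, PDPK1, FOXO1 and FOXO3, against 39.5% of all genes tested. These 4 genes had p = 0.1 in the two-sided exact permutation test, the smallest value that 3 libraries per group allow. By the distance between log2 CPM profiles over the 6 libraries, each centred on its own mean, the genes most like AKT1 among 11632 genes with a mean of at least 5 CPM were EID2 (root mean square distance 0.0111) and FRA10AC1 (0.0182). Those most like FOXO3 were ZNF24 (0.0116) and CPSF2 (0.0123), and those most like FOXO1 were CYP4F11 (0.0309) and IRAK2 (0.0356). The distance is in log2 units and was used as a description.

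Scaled by exon length (RPKM, the CPM of a gene divided by its exon length in kilobases), the levels of the 9 genes spanned about an order of magnitude in control cells. FOXO3 was highest, at 8.29 ± 0.103 RPKM (SD, n = 3). GSK3B (5.99 ± 0.421), MTOR (5.69 ± 0.186), AKT1 (5.07 ± 0.241) and RICTOR (4.14 ± 0.101) followed, then GSK3A (2.79 ± 0.144), PDPK1 (2.48 ± 0.0680), AKT2 (1.23 ± 0.0567) and FOXO1 (0.695 ± 0.0279). In control libraries the ranges of GSK3B and MTOR overlapped, and no other neighbours in this order did. In knockdown libraries the same gene was first and the same gene last. AKT1, at 5.65 ± 0.112 RPKM (SD, n = 3), and MTOR, at 5.54 ± 0.171, overlapped there and changed places, and so did PDPK1 (2.61 ± 0.0370) and GSK3A (2.58 ± 0.112). FOXO1 remained lowest, at 0.553 ± 0.0575 RPKM.

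**Figure D3:**
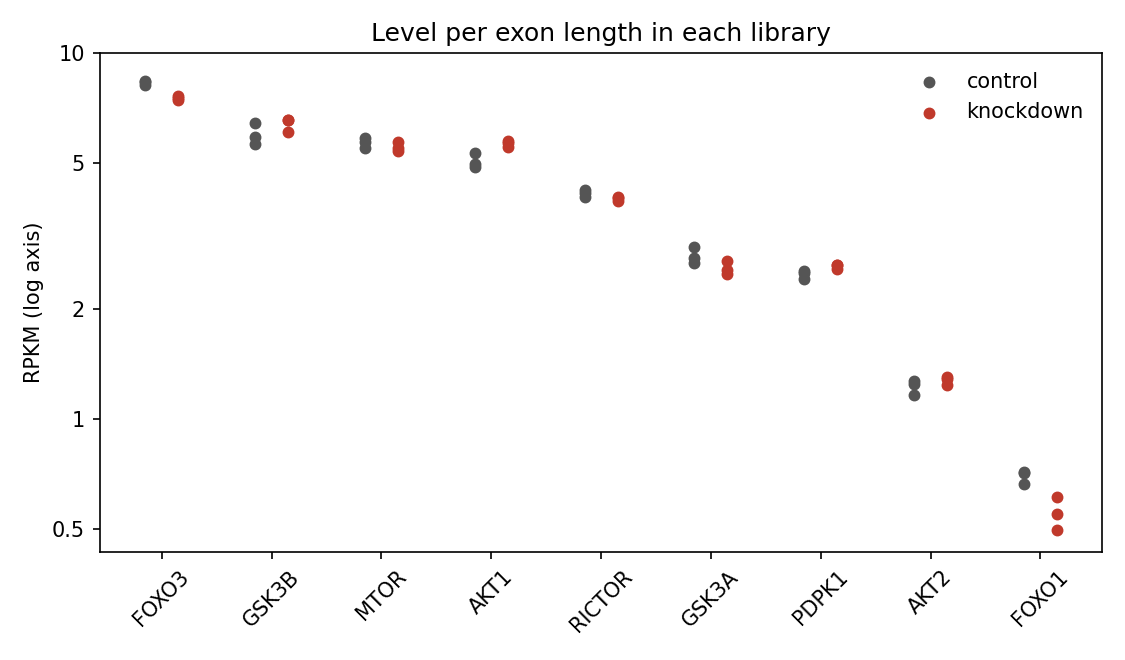
RPKM (y axis, logarithmic) of the 9 genes in each control (grey) and NFE2L3 knockdown library (red), ordered by the control mean. FOXO3 was highest and FOXO1 lowest in both groups.

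The balance within pairs of related genes does not depend on how libraries are scaled to each other, and 4 such shares of summed RPKM were compared. GSK3A made up 29.9%, 33.4% and 32.2% of GSK3A and GSK3B in control cells and 29.2%, 29.6% and 27.5% after knockdown. The groups did not overlap, though control replicate 1 came close to the knockdown libraries. The mean share was 31.8% ± 1.78 in control and 28.8% ± 1.10 in knockdown (SD, n = 3 each), a difference of -3.02 percentage points (exact permutation p = 0.1, two-sided, as low as this design can reach, and 0.4 when adjusted over the 4 shares). AKT1 made up 80.5% ± 0.992 of AKT1 and AKT2 in control and 81.6% ± 0.669 in knockdown (SD, n = 3 each; exact permutation p = 0.3, adjusted 0.4). FOXO1 made up 7.73% ± 0.322 of FOXO1 and FOXO3 in control and 6.83% ± 0.704 in knockdown (SD, n = 3 each; exact permutation p = 0.2, adjusted 0.4). RICTOR, the mTORC2 subunit, made up 58.4% ± 0.673 of itself and RPTOR, the defining subunit of mTORC1, in control and 58.4% ± 1.77 in knockdown (SD, n = 3 each; exact permutation p = 1). The sign of the small RICTOR difference changed with which library was left out.

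**Figure D4:**
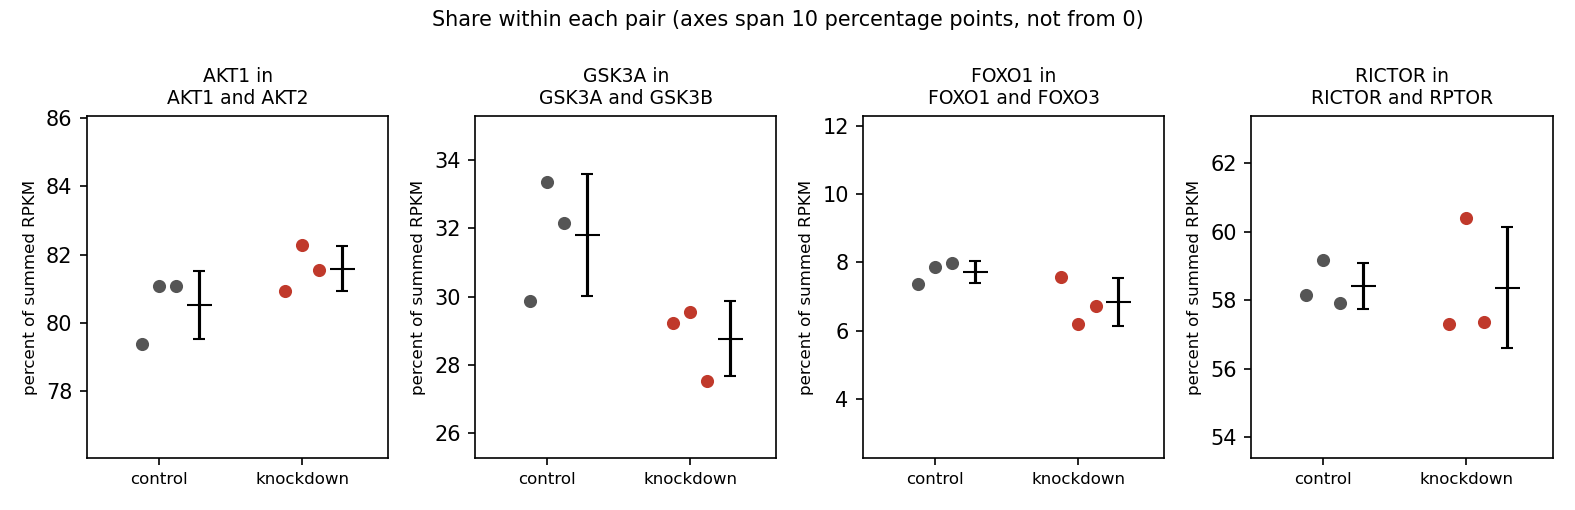
Share of the first gene in the summed RPKM of each pair (y axes in percent, each spanning 10 percentage points and not starting at 0), with points for libraries and the mean and SD beside them. The groups separate only for GSK3A in GSK3A and GSK3B, at 31.8% in control and 28.8% in knockdown.

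Of 91 other tested genes of the pathway in 9 lists, 23 (25.3%) fell and 17 (18.7%) rose by the same edgeR threshold, against 14.0% and 12.7% of all genes tested. Their median log2 fold change was -0.03, and their median absolute log2 fold change of 0.127 was below the 0.157 of all genes tested. The value of 0.157 was not matched by level. Among the 9403 genes whose mean level lay within the range of the 9 genes, 19.3% were lower and 15.3% higher. Some of the 91 genes lay outside that range. Both pairs of background shares also apply to the counts of each list below. The lists were chosen with earlier results of these data known, and the counts are given as a description. The number of higher genes fell to 10 without control replicate 2, to 11 without knockdown replicate 1 and to 10 without knockdown replicate 3.

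Upstream of AKT, receptors, adaptors and class I PI3K subunits had 6 lower and 2 higher genes of 11 tested, with a median log2 fold change of -0.25. PIK3R1, the main regulatory subunit of PI3K, was at 57.7, 52.9 and 53.7 CPM in control and at 42.6, 36.3 and 40.6 CPM in knockdown libraries. The catalytic subunit PIK3CD was at 44.3, 44.0 and 42.6 CPM in control and at 33.1, 31.6 and 33.9 CPM in knockdown libraries, and 89 bases of its exons overlap the abundant gene CLSTN1 on the opposite strand. PIK3R3, another regulatory subunit, had a log2 fold change of -0.41 (adjusted p = 1.20e-04 from edgeR). The adaptor IRS2 rose, from 80.6, 82.2 and 73.0 CPM to between 97.5 and 101 CPM. For PIK3R1, PIK3CD and IRS2 the gap between the groups was wider than either group. Without control replicate 3, 1 gene of the list was higher. PIK3CG was at 0 in every library and was not tested.

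None of the 10 phosphatases that oppose PI3K and AKT was called by edgeR, DESeq2, the exact test or limma-voom, and 1 had an unadjusted p under 0.05 in edgeR. Without control replicate 1, 1 was called lower. The median log2 fold change was 0.01. The smallest adjusted p was that of PPP2R1A, the scaffold of PP2A (log2 fold change -0.15, adjusted p = 0.0665 from edgeR).

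Among kinases related to AKT and AKT inhibitors, 2 of 6 were lower and none was higher, also by DESeq2, the exact test and limma-voom and at an unadjusted p under 0.05. SGK1, a kinase that shares activators and substrates such as FOXO3 with AKT, was at 6.22, 7.13 and 6.23 CPM in control and at 3.33, 4.16 and 2.998 CPM in knockdown libraries. This fall of 0.90 on the log2 scale (standard error 0.117, adjusted p = 2.11e-06 from edgeR) exceeded that of each of the 9 genes. SGK3 was also lower (log2 fold change -0.25, adjusted p = 0.0139 from edgeR), but 41.7% of its exon sequence is shared with the readthrough gene C8orf44-SGK3. Only 1 gene of the list was lower without control replicate 2, knockdown replicate 2 or knockdown replicate 3.

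Of 9 other subunits of the mTOR complexes, 2 were lower and 2 higher. DEPTOR, an inhibitor within both complexes, was at 6.47, 5.98 and 5.31 CPM in control and at 3.31, 3.67 and 3.11 CPM in knockdown libraries (log2 fold change -0.81, adjusted p = 4.62e-06 from edgeR). MLST8, a subunit of both complexes, was lower (-0.27, adjusted p = 7.08e-04), while AKT1S1, an AKT substrate in mTORC1 (0.28, adjusted p = 4.66e-04), and the mTORC2 subunit MAPKAP1 (0.16, adjusted p = 0.0135) were higher in edgeR. Of these, 1 was higher without control replicate 2 or knockdown replicate 3. RPTOR had a log2 fold change of -0.05 (adjusted p = 0.604 from edgeR). KB-1471A8.1, on the opposite strand, shares 9.61% of the exon sequence of DEPTOR and was itself lower (-0.74, adjusted p = 0.00241 from edgeR).

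The TSC, RHEB, Rag and Ragulator list, which controls mTORC1 at the lysosome, had 4 lower and 1 higher gene of 13. RHEB, the GTPase that activates mTORC1, went from 146, 139 and 142 CPM to 130, 133 and 125 CPM (adjusted p = 0.0113 from edgeR), and the Ragulator subunit LAMTOR3 had a log2 fold change of -0.26 (adjusted p = 0.0116). The number of lower genes was 1 without knockdown replicate 1 or knockdown replicate 3, and 2 without control replicate 2, control replicate 3 or knockdown replicate 2. The higher gene was lost whichever of the 6 libraries was left out, and DESeq2 called 3 lower and 0 higher. Of 7 genes for substrates of mTORC1 or proteins downstream of them, 2 were higher by edgeR, DESeq2, the exact test and limma-voom. None was lower in these tests, nor at an unadjusted p under 0.05. The higher genes were the translation inhibitor EIF4EBP2 (0.27, adjusted p = 0.00102 from edgeR) and the autophagy kinase ULK1 (0.20, adjusted p = 0.0289). Without control replicate 1, 3 were higher and 1 was lower, and 1 was higher without control replicate 3 or knockdown replicate 1.

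Of 7 partners and substrates of GSK3, the scaffold AXIN1 was higher (50.3, 51.6 and 53.3 CPM in control, 57.6, 56.6 and 57.0 CPM in knockdown libraries, adjusted p = 0.0202 from edgeR). APC was lower (28.8, 26.2 and 26.5 CPM in control, 24.6, 23.4 and 23.6 CPM in knockdown libraries, adjusted p = 0.0141 from edgeR). CTNNB1, which encodes β-catenin, had a log2 fold change of -0.06 and did not pass (adjusted p = 0.273 from edgeR). The study reported less β-catenin protein on blots after NFE2L3 knockdown, which is a different measure. No gene of the list was called without control replicate 1 or knockdown replicate 3, none was higher without control replicate 2 or knockdown replicate 1, and 2 were lower without control replicate 2.

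Of 11 tested relatives and regulators of FOXO factors, 6 were higher and 1 was lower, with a median log2 fold change of 0.12. The higher genes included YWHAH, a 14-3-3 protein of the kind that holds phosphorylated FOXO in the cytoplasm, at 139, 147 and 153 CPM in control and at 169, 172 and 172 CPM in knockdown libraries. The nuclear export receptor XPO1 (0.21, adjusted p = 6.01e-04 from edgeR) and the deubiquitinase USP7 (0.15, adjusted p = 0.00662) were higher as well. SIRT1, a deacetylase that acts on FOXO proteins, was at 43.9, 47.3 and 46.2 CPM in control and at 37.0, 36.0 and 36.5 CPM in knockdown libraries. The paralog FOXO4, named after its values were seen, was higher (0.22, adjusted p = 0.0306 from edgeR), though its groups overlapped, and FOXO6 was too low to be tested. The number of higher genes was 3 without control replicate 2 or knockdown replicate 2.

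Of 20 tested genes known as targets of FOXO factors, 7 were lower, 4 were higher and 9 were not called, with a median log2 fold change of -0.06. GADD45A, a growth arrest gene, was at 994, 1061 and 1103 CPM in control and at 779, 804 and 764 CPM in knockdown libraries. CAT, which encodes catalase, was at 32.6, 31.8 and 32.7 CPM in control and at 24.4, 25.0 and 28.4 CPM in knockdown libraries. TRIB1, a pseudokinase, had a log2 fold change of -0.34 (adjusted p = 5.80e-04 from edgeR), and IRS2 was among the higher genes. RICTOR is also on this list and was not called, and SESN3 was too low to be tested. The number of higher genes was 2 without control replicate 3, knockdown replicate 1 or knockdown replicate 3.

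**Figure D5:**
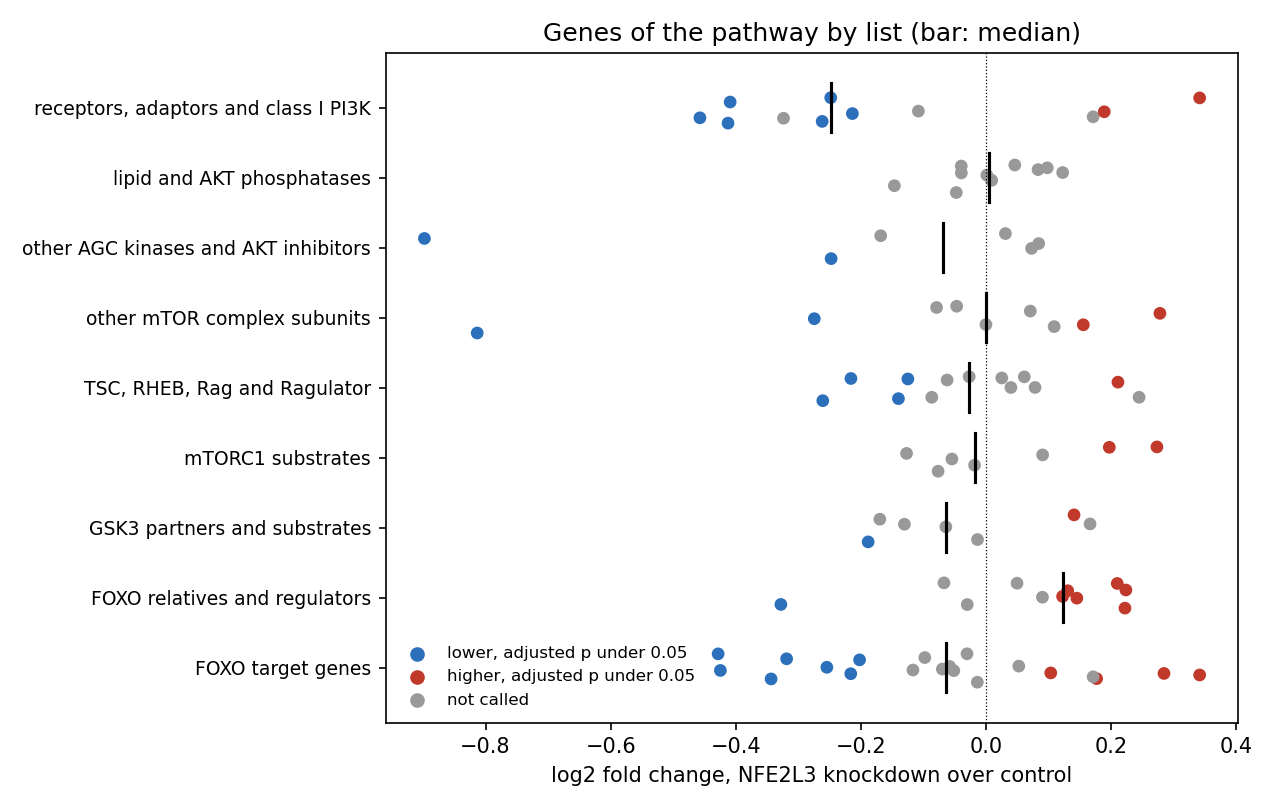
Change on the log2 scale (x axis, knockdown divided by control) of the tested genes of 9 pathway lists, with 1 point per gene, blue for lower, red for higher and grey for not called by edgeR, and a black bar at each median. Medians run from -0.25 in receptors, adaptors and class I PI3K to 0.12 in FOXO relatives and regulators, and vertical scatter has no meaning.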

How the data were processed

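RNA-seq of 3 control and 3 NFE2L3 knockdown libraries of 786-O cells was analysed. The authors used Trimmomatic 0.36 for trimming, merged reads with a common molecular identifier, aligned them with STAR 2.5.3a to the genome of Ensembl release 87 and summarised exonic reads per gene with featureCounts (Subread 1.5.1), as the study's methods and the submitters' processing notes state. The deposited values are raw counts per gene and library. Whether counting used the strand is not stated. Even numbers made up 67.6% to 69.9% of low counts (under 30), which would occur if each mate were counted, so halved counts were tried.

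Genes were kept by filterByExpr (minimum count of 10), which left 19916 of 56303, scaled by TMM and fitted in edgeR 4.0.16 (R 4.3.3) for a quasi-likelihood test with no block. Benjamini-Hochberg adjustment covered every tested gene. The standard error is the absolute log2 fold change over the root of F. The procedure was tested on simulated data. Counts for every pair of replicates differed by more than the sampling noise. Alternatives used other scalings, filters and tests (DESeq2 1.42.0, limma-voom of limma 3.58.1 and the exact test of edgeR), a replicate block, halved counts and leaving out each library. Motifs were searched with Python 3.11.15.

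The 9 genes and the lists were chosen with earlier results of these data known. Named were NFE2L3, the 9 genes, genes overlapping or copying them, up to 4 genes per list with the smallest adjusted p, RPTOR and the 2 genes most like each called gene. Cell markers, PIK3CG, FOXO4, FOXO6, SESN3 and genes overlapping the named list genes were named outside this rule. Some genes that the rule names are not reported here.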

Additional observations from a re-analysis of the deposited data

How the results depend on the processing

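No alternative changed the sign of any of the 9 fold changes, and none put a gene past a 2-fold change. Of 2 lower genes, 1 was left with upper quartile scaling, with DESeq2 and with a replicate block (FOXO1, adjusted p = 0.0553 from edgeR with the block), and 0 to 2 when 1 library was left out. Of 1 higher gene, 0 to 2 were left when 1 library was left out. The calls of AKT2, PDPK1, GSK3A, MTOR and RICTOR were the same under all 16 alternatives. Among the other pathway genes, 17 to 25 were lower and 10 to 14 higher when 1 library was left out. The difference in the RICTOR share then ran from -1.08 to 0.4703 percentage points, and was 0.3257 without control replicate 2, 0.4703 without knockdown replicate 1 and 0.4368 without knockdown replicate 3. The difference in the GSK3A share ran from -3.989 to -2.237, that in the AKT1 share from 0.4999 to 1.401 and that in the FOXO1 share from -1.277 to -0.5805. The cause of these shifts was not tested. Libraries with the same replicate number did not deviate together (correlations of -0.0574, -0.156 and -0.0685), so the numbers were not taken as pairs. With the block, 2504 genes were lower and 2278 higher over the whole table, beside 2783 and 2537 without it, and it changed no call of the 9 genes but that of FOXO1. No phosphorylation can be read from these counts.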
